A study of Mus musculus with 44 samples.

Results

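The hemoglobin genes and Alas2 were followed through 20 libraries of ribosome-bound RNA from mouse hippocampus. The set holds 5 of the 55335 genes counted: the alpha-globin genes Hba-a1 and Hba-a2, the beta-globin genes Hbb-bs and Hbb-bt, and Alas2. They were chosen by symbol, by matching the Ensembl gene identifiers of the count table to the GENCODE annotation of GRCm38, after the 4 globin genes had been seen to be lower in exercised than in sedentary mice in one set of these libraries. That contrast is therefore given below as a description, and where the study's p-based call is counted in it nothing is read from the count.

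Adult hemoglobin is a tetramer of alpha and beta chains, each of which holds a heme group, and red blood cells carry it in very large amounts. Circulating red cells of mammals have no nucleus, and the youngest of them, the reticulocytes, still hold ribosomes and a pool of messenger RNA in which globin transcripts dominate. Alas2 encodes the erythroid form of the first enzyme of heme synthesis, whereas other tissues use Alas1. Globin transcripts have also been described at low levels in some neurons and glia, so that a globin read from brain tissue does not by itself name the cell it came from. In bulk RNA, fewer cells of a type and less RNA per cell cannot be told apart.

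All mice were male Emx1-NuTRAP animals, in which Cre recombinase expressed from the Emx1 locus turns on a GFP-tagged ribosomal protein and a labelled nuclear envelope, mainly in excitatory forebrain neurons and in some glia. Early-life exercise (ELE) mice had running wheels from postnatal day 21 to 41, and sedentary mice had none. Tagged ribosomes were captured by translating ribosome affinity purification (TRAP), either from the same homogenate as the nuclei (simultaneous isolation of nuclei and ribosomes, SIT, with both hippocampi of a mouse combined) or from 1 hippocampus on its own (separate isolation). The animals were killed by cervical dislocation, and no perfusion is named for the mice used for RNA. The groups were SIT sedentary (4 libraries), SIT ELE (4), left sedentary (3), left ELE (3), right sedentary (3) and right ELE (3), each library from 1 mouse and named here by its mouse number. The study compared 2 of the SIT sedentary libraries (NT6.305 and NT6.306) with 3 of the SIT ELE libraries (NT6.303, TG7.4.1 and TG7.4.2). The SIT sedentary libraries NT7.2.3 and NT7.2.4 and the SIT ELE library NT6.304 were outside that comparison. According to the study's reporting notes, the sedentary pair was set aside because ribosomal and other non-messenger RNA was abundant in the counts, which was taken as a likely error in the RNA isolation, and the ELE mouse because it lay far from the others in a principal component analysis. The methods give the weight on the first principal component as the criterion for all of them.

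Totals ran from 45895097 to 65767802 counts per library. Both NT7.2 mice stood apart from the rest in genes other than globins too. Mitochondrial genes took up 8.64 and 9.64% of their counts, against 0.195 to 0.523% in the other 6 SIT libraries and 0.0704 to 0.122% in the 12 separate libraries. Summed microglia markers reached 271 and 280 CPM (read counts scaled to a common library total) in these mice, against 8.19 to 17.4 CPM in the other 18 libraries, and inhibitory neuron markers 880 and 918 CPM against 42.5 to 114.6 CPM. Results in SIT are therefore given with and without these libraries. The excitatory neuron genes Camk2a and Slc17a7 were abundant throughout, with means of 3713 and 3495 CPM over the 20 libraries.

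The globin genes of each pair are nearly identical in coding sequence, and this limits how finely the counts can be read. Hba-a1 lies on the forward strand at chr11:32283511-32284465 and Hba-a2 at chr11:32296489-32297298 (GRCm38, GENCODE). Hbb-bs lies on the reverse strand at chr7:103826534-103828096 and Hbb-bt at chr7:103812524-103813996. The coding sequences of Hba-a1 and Hba-a2, 429 bases each, differed at 1 base and were identical over a run of 380 bases. Those of Hbb-bs and Hbb-bt, 444 bases each, also differed at 1 base and were identical over a run of 416 bases. The stretches that hold the only differing base, written in capitals, are shown because they are all that separates the partners within the coding sequence.
Hba-a1: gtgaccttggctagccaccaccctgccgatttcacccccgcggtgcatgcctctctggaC
Hba-a2: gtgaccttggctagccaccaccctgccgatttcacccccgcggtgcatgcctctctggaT
Hbb-bs: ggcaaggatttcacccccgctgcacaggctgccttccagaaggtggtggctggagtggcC
Hbb-bt: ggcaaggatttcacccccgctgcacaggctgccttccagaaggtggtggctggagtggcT

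These are coding bases 322 to 381 of the alpha genes and 358 to 417 of the beta genes, counted from the start codon. Of all 50-base windows of the annotated transcript, 67.5% of those in Hba-a1 were also found in Hba-a2 and 86.9% of those in Hba-a2 were also found in Hba-a1. For Hbb-bs and Hbb-bt the shares were 65.8% and 58.3%. A read pair from such a window could belong to either partner, and how such pairs were counted is not given in the sources used here. The split within a pair is therefore uncertain, and the effect on the alpha and beta sums is not known. Alas2, at chrX:150547375-150570638 on the forward strand, has no such partner among the 5 genes.

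The stretch of 110 bases upstream of each RefSeq start (GRCm38.p6) is shown for 4 of the genes. All 5 were followed together, and their starts can be compared directly. RefSeq and GENCODE starts differ, so each window shown overlaps the GENCODE span of its gene given above, that of Hbb-bs wholly. Capitals mark 4 motifs searched on both strands by their letters: the box CACCC bound by erythroid Krüppel-like factors, the box CCAAT, a short TATA box written TATAA, and the GATA factor motif written GATAA.
Hba-a2, chr11:32296382-32296491, forward strand: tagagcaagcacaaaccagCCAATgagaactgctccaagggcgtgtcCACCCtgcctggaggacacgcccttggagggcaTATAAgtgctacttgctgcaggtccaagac
Hbb-bs, chr7:103827929-103828038, reverse strand: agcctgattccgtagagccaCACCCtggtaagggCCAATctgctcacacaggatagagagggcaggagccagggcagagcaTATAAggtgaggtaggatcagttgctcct
Hbb-bt, chr7:103813924-103814033, reverse strand: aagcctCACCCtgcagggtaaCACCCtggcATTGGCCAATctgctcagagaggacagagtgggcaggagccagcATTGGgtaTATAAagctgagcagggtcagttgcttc
Alas2, chrX:150547307-150547416, forward strand: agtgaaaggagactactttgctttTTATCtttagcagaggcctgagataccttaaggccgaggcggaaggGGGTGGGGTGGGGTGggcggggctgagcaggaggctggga

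The window of Hba-a1 shares an unbroken run of 107 bases with that of Hba-a2 and is not repeated here. Hbb-bs and Hbb-bt shared at most 14 bases in a row, although their coding sequences are nearly the same. CACCC stood in the windows of 5 of the 5 genes, and in 29.6% of 32851 mouse promoter windows of that length. CCAAT stood in 4 of the 5 and TATAA in 4 of the 5, in each case all but Alas2, against 20.2% and 10.9% of the windows. CACCC and CCAAT stood together in 4 of the 5, against 5.42% of the windows. GATAA stood only in the Alas2 window among the 5, against 9.43% of the windows. These are matches of letters within a window and not measured binding sites.

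The level of the alpha-globin genes was highest in the SIT sedentary libraries, and by far in the NT7.2 mice. Hba-a1 was at 11.8 CPM in NT6.305, 10.9 in NT6.306, 63.1 in NT7.2.3 and 166.2 in NT7.2.4, after scaling by trimmed mean of M values (TMM). In the SIT ELE libraries Hba-a1 was at 1.36 CPM in NT6.303, 4.91 in NT6.304, 4.55 in TG7.4.1 and 3.22 in TG7.4.2. The lowest SIT sedentary library was thus above the highest SIT ELE library, and the sedentary group itself spanned more than the distance between the groups. In the left hippocampus Hba-a1 was at 1.72, 1.58 and 1.45 CPM in sedentary mice (TG7.3.4, TG9.1.2, TG9.2.4) and at 3.46, 0.952 and 2.09 CPM in ELE mice (TG7.3.2, TG9.1.4, TG9.2.2). In the right hippocampus it was at 3.33, 1.92 and 3.14 CPM in sedentary mice (TG7.3.3, TG9.1.1, TG9.2.3) and at 1.27, 1.92 and 0.963 CPM in ELE mice (TG7.3.1, TG9.1.3, TG9.2.1). The left groups overlapped, and in the right hippocampus TG9.1.1 and TG9.1.3 were alike.

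Hba-a2 followed Hba-a1 closely. It was at 10.6 and 8.79 CPM in NT6.305 and NT6.306, at 53.7 and 150.4 CPM in NT7.2.3 and NT7.2.4, and at 0.984, 3.72, 4.20 and 2.96 CPM in NT6.303, NT6.304, TG7.4.1 and TG7.4.2. Again every SIT sedentary library was above every SIT ELE library. In the same order of mice as for Hba-a1, the left sedentary libraries held 1.58, 1.80 and 2.02 CPM and the left ELE libraries 2.72, 0.742 and 1.16 CPM. The right sedentary libraries held 2.82, 2.02 and 3.38 CPM and the right ELE libraries 1.47, 1.40 and 1.62 CPM. The right sedentary and right ELE libraries of Hba-a2 did not overlap. The share of all genes with such a gap was not computed, so nothing is read from it.

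Hbb-bs, the more abundant beta-globin gene here, was at 6.03 and 4.54 CPM in NT6.305 and NT6.306 and at 55.6 and 180.2 CPM in NT7.2.3 and NT7.2.4. In NT7.2.4 it was above Hba-a1, whereas in the NT6 libraries it was below both alpha-globin genes. The SIT ELE libraries held 0.798, 2.65, 2.50 and 1.93 CPM of Hbb-bs, in the order NT6.303, NT6.304, TG7.4.1 and TG7.4.2. The left sedentary libraries held 0.677, 0.947 and 1.34 CPM and the left ELE libraries 1.77, 0.457 and 0.456 CPM. The right sedentary libraries held 3.61, 0.734 and 2.07 CPM and the right ELE libraries 0.905, 0.959 and 0.999 CPM. Among the separate libraries only TG7.3.3 was above every SIT ELE library.

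Hbb-bt was the least abundant globin gene of the set on average in each group. It was at 2.13 and 2.06 CPM in NT6.305 and NT6.306, at 19.9 and 56.6 CPM in the NT7.2 libraries, and at 0.747, 0.786, 0.587 and 1.03 CPM in the SIT ELE libraries. The SIT groups did not overlap. In the separate libraries Hbb-bt ran from 0.143 CPM in TG9.1.1 to 1.40 CPM in TG7.3.3, both of them right sedentary libraries, so that the widest spread lay within 1 group.

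Alas2 was lower on average than each globin gene and did not follow their order in each library, although it equaled Hbb-bt in TG9.1.1 (0.143 CPM each) and was close to it in TG7.4.1. It had 2 counts (0.0383 CPM) in NT6.305 and 0.288 CPM in NT6.306, but 2.51 and 7.41 CPM in the NT7.2 libraries. The SIT ELE libraries TG7.4.1 and TG7.4.2 held 0.532 and 0.496 CPM and NT6.304 held 0.275 CPM, while NT6.303 had 0 counts, which allows up to 0.0509 CPM (3 counts). The SIT groups overlapped. The separate libraries ran from 0 counts in TG9.1.3 and TG9.2.1, which allows up to 0.0457 and 0.0535 CPM, to 0.347 CPM in TG7.3.2. In the right hippocampus Alas2 was at 0.307, 0.143 and 0.108 CPM in sedentary mice and at 0.0603, 0 and 0 CPM in ELE mice. These did not overlap, but rest on at most 14 counts per library.

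**Figure D1:**
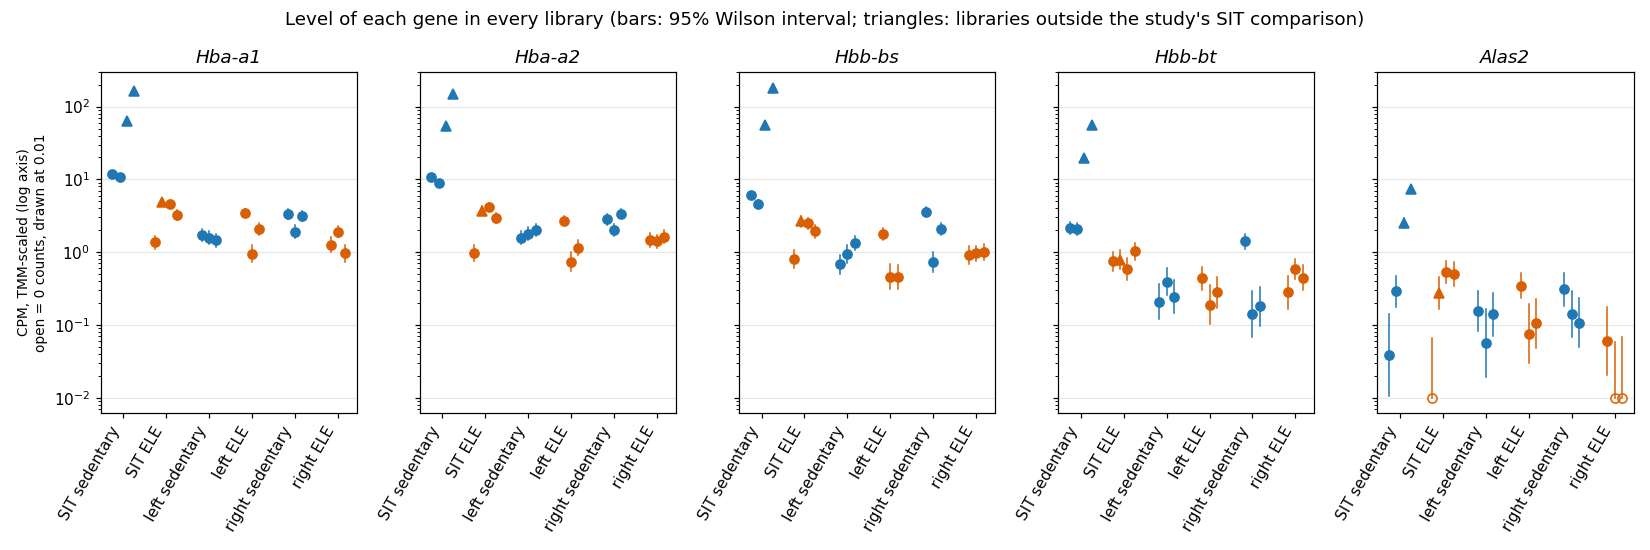
Level of the 5 genes in every library, as TMM-scaled CPM on a log axis, with 95% Wilson intervals that cover counting error only; blue marks are sedentary and orange marks ELE libraries, triangles are the SIT libraries outside the study's comparison, and open marks are libraries with 0 counts. The NT7.2 libraries, at 166.2 and 63.1 CPM for Hba-a1, stand above all others in each panel.

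The genes can be ranked against each other per kilobase of annotated exon. In the 2 SIT sedentary libraries compared by the study, the mean level was 14.0 CPM per kb for Hba-a1, 14.6 for Hba-a2, 6.88 for Hbb-bs, 2.98 for Hbb-bt and 0.0680 for Alas2. In the 12 separate libraries the mean was 2.44 CPM per kb for Hba-a1, 2.84 for Hba-a2, 1.62 for Hbb-bs, 0.567 for Hbb-bt and 0.0519 for Alas2. The order of the 5 means was the same in both sets. In NT6.306 alone Hba-a1 was above Hba-a2, at 13.4 against 13.2 CPM per kb, and the order within a pair carries the uncertainty of the split. When the 6 groups were ordered by mean CPM, SIT sedentary came first for all 5 genes. Its range did not overlap that of the next group for the 4 globin genes but did for Alas2. The SIT contrast chose the genes, and the share of all genes with such a gap was not computed, so nothing is read from this. All lower neighbors in that order overlapped for each of the 5 genes.

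Summed over the 4 globin genes, the SIT sedentary libraries held 30.6 CPM (NT6.305), 26.3 CPM (NT6.306), 192.4 CPM (NT7.2.3) and 553.4 CPM (NT7.2.4). The SIT ELE libraries held 3.89 CPM (NT6.303), 12.1 CPM (NT6.304), 11.8 CPM (TG7.4.1) and 9.14 CPM (TG7.4.2). The 12 separate libraries averaged 5.52 CPM ± 2.55 (SD, n = 12), from 2.34 CPM in TG9.1.4 to 11.2 CPM in TG7.3.3. Set against that mean, the sum was 5.15 times as high in the NT6 sedentary libraries, 67.6 times in the NT7.2 libraries and 1.5 times in the SIT ELE libraries compared by the study. SIT and separate libraries also differed in the amount of tissue, the homogenizer and the mice, and these cannot be told apart from the isolation method.

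The balance of alpha and beta counts was not the same in all libraries. Beta-globin genes made up 26.7% of the globin counts in NT6.305 (95% Wilson interval 24.6 to 28.9) and 25.1% in NT6.306 (22.9 to 27.5). In NT7.2.3 the share was 39.3% (38.3 to 40.2) and in NT7.2.4 it was 42.8% (42.2 to 43.3). The intervals of the NT7.2 libraries did not overlap those of the NT6 sedentary libraries, but they hold counting error only, and the shares of all 4 lie within the range between single mice in the separate libraries. Among the SIT ELE libraries the share was 39.7% in NT6.303 (33.6 to 46.2), 28.5% in NT6.304, 26.0% in TG7.4.1 and 32.4% in TG7.4.2. NT6.303, with the fewest globin counts of the SIT libraries, therefore had a beta share like that of the NT7.2 libraries, with a wide interval. The separate libraries averaged 28.3% ± 7.49 (SD, n = 12), with the highest share, 44.9% (40.6 to 49.2), in TG7.3.3 and the lowest, 18.2%, in TG9.1.1.

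Alas2 made up 1.29% of the counts of the 5 genes in NT7.2.3 and 1.32% in NT7.2.4, and 1.09% in NT6.306. In NT6.305 its share was 0.125% (0.0343 to 0.455), the lowest of any library in which it was detected. In TG7.4.1 it was 4.30% (3.01 to 6.11) and in TG7.4.2 5.15% (3.54 to 7.44), above the upper limits of both NT6 sedentary libraries. The ELE mice of the TG7.4 number thus had fewer globin counts than the NT6 sedentary mice but no fewer Alas2 counts. In the separate libraries the Alas2 share lay between 0 and 3.98%. Within the pairs, Hba-a1 took 37.2 to 64.3% of the alpha counts and Hbb-bt 8.0 to 48.4% of the beta counts over the 20 libraries, a split that carries the uncertainty of the near-identical sequences.

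**Figure D2:**
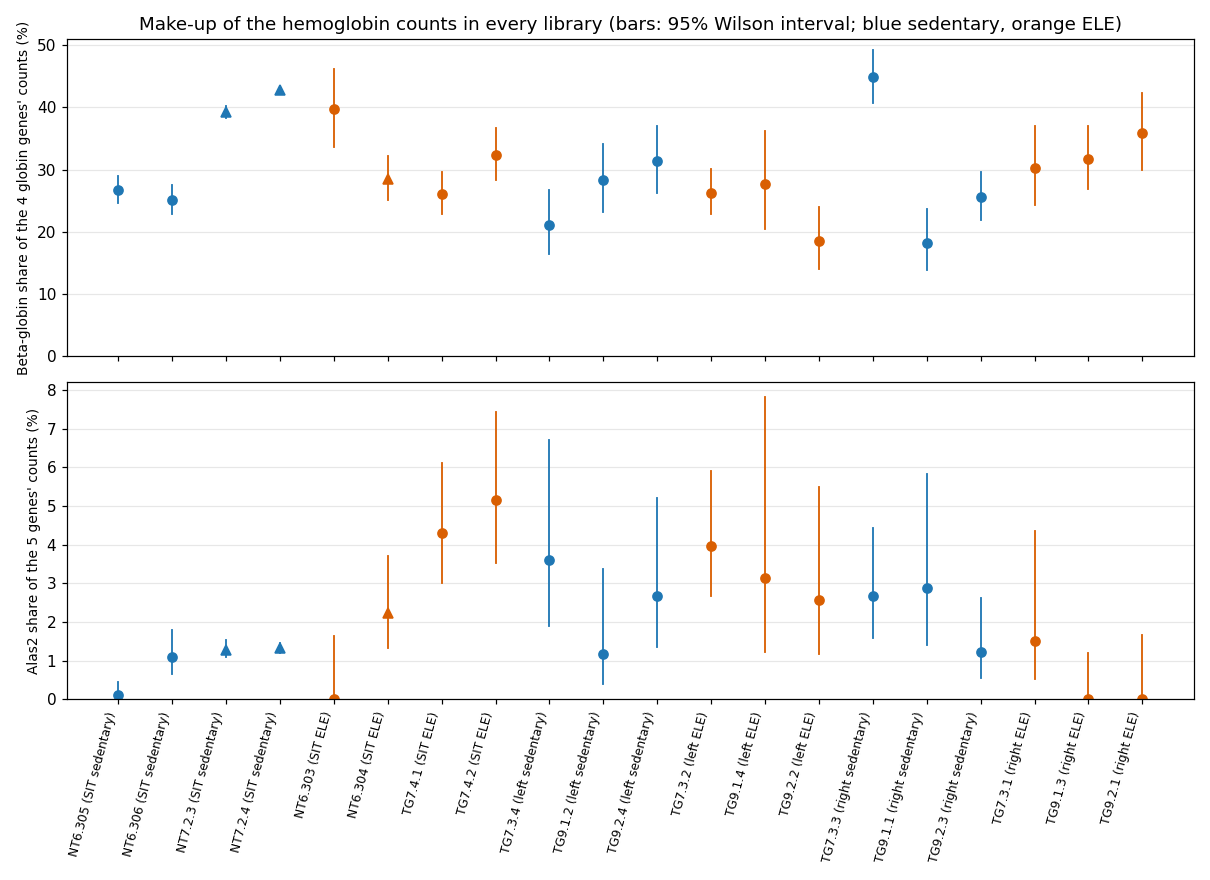
Beta-globin share of the counts of the 4 globin genes (upper panel, %) and Alas2 share of the counts of the 5 genes (lower panel, %) in each library, with 95% Wilson intervals; blue is sedentary, orange is ELE, and triangles are SIT libraries outside the study's comparison. The NT7.2 libraries lie at 39.3 and 42.8% beta with narrow intervals, and TG7.4.1 and TG7.4.2 hold the largest Alas2 shares, 4.30 and 5.15%.

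In the SIT libraries compared by the study, the summed globin level was 28.4 CPM ± 3.04 (SD, n = 2) in sedentary and 8.29 CPM ± 4.04 (SD, n = 3) in ELE mice, 3.43 times as high in sedentary mice. The fitted log2 difference, ELE minus sedentary, was -1.90 ± 0.39 (SE) for Hba-a1, -1.84 ± 0.45 for Hba-a2, -1.60 ± 0.43 for Hbb-bs and -1.41 ± 0.48 for Hbb-bt. For Alas2 it was 1.06 ± 1.74, in the other direction and smaller than its error. By the call used in the study, an unadjusted p under 0.05 with an absolute log2 difference above the study's threshold, 4 of the 5 genes were lower in ELE mice, against 2.11% of the 18238 genes tested. Because this contrast chose the genes, nothing can be read from that count.

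With all 8 SIT libraries, which adds both NT7.2 libraries to the sedentary group and NT6.304 to the ELE group, the sum was 200.6 CPM ± 247.5 (SD, n = 4) in sedentary and 9.23 CPM ± 3.80 (SD, n = 4) in ELE mice. The SD of the sedentary group was larger than its mean. The log2 difference of Hba-a1 became -4.18 ± 0.87 and that of Hbb-bs -4.98 ± 1.10, and Alas2 changed sign, to -2.98 ± 1.33. All 5 genes then met the call, beside 5.41% of all genes tested, but 5 of the 8 libraries are those that chose the genes, and nothing is read from that count either. Without the NT7.2 libraries, with 4 ELE and 2 sedentary mice, Alas2 was at 0.98 ± 1.63.

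Mouse number and exercise overlapped in SIT: both TG7.4 mice were ELE, both NT7.2 mice were sedentary, and the 4 NT6 mice were divided between the groups. Within the NT6 mice, 2 of each group, the log2 difference was -1.87 ± 0.59 for Hba-a1, -2.07 ± 0.61 for Hba-a2, -1.63 ± 0.59 for Hbb-bs and -1.46 ± 0.45 for Hbb-bt. That of Alas2 was -0.28 ± 1.95. The 4 globin genes met the call there, beside 3.06% of all genes, but 3 of these 4 libraries belong to the comparison that chose the genes, so this is no independent repeat. In NT6.303 the sum was 3.89 CPM and in NT6.304 12.1 CPM, so that the 2 NT6 ELE mice also differed from each other.

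The genes called for exercise in SIT depended strongly on which libraries were fitted. In the study's comparison 665 genes were called, 280 higher and 385 lower in ELE mice. With all 8 libraries 1350 genes were called, 402 higher and 948 lower, and 222 genes were called in both, 33.4% of the smaller and 16.4% of the larger list. Adding NT6.304 alone, without the NT7.2 libraries, gave 511 genes, of which 380 were among the 665 (74.4% of the 511 and 57.1% of the 665), so the list shifted without any NT7.2 library as well. The summed globin level separated the SIT groups completely, at 26.3 CPM or more in sedentary and 12.1 CPM or less in ELE mice, so a fit that holds it constant removes much of the exercise contrast by construction, and nothing is read from such a fit here. With the mitochondrial share as covariate in the fit of all 8, 429 genes were called, of which 216 were among the 1350 and 323 among the 665. The globin level, the mitochondrial share and the markers of microglia and inhibitory neurons all stood highest in the same 2 mice, so the part of each in these counts cannot be told apart.

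**Figure D3:**
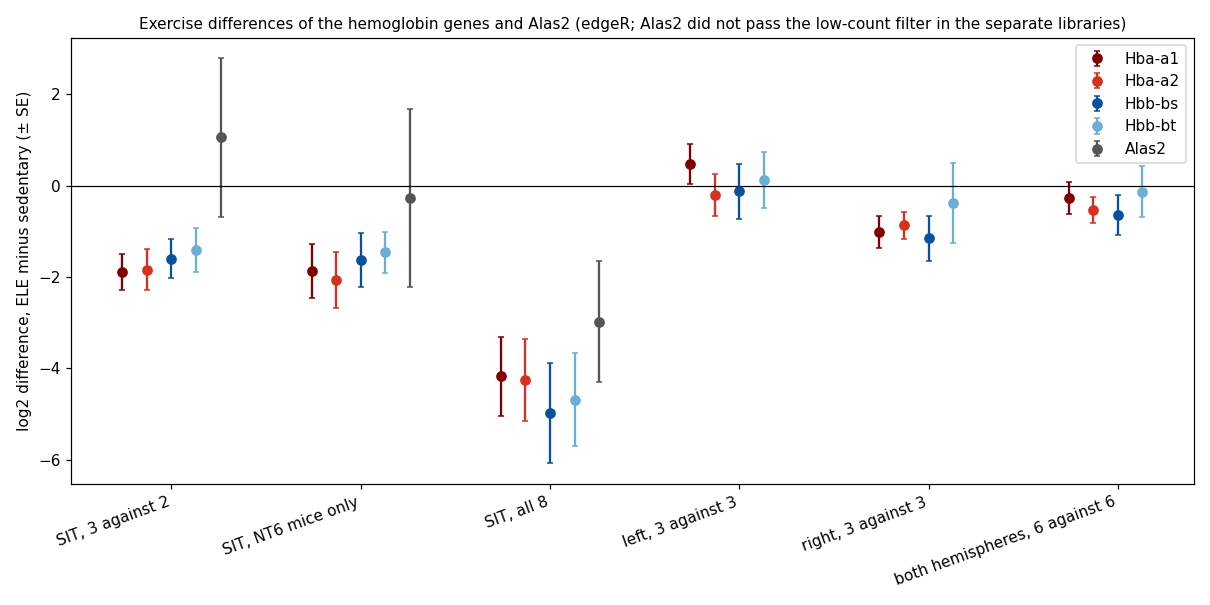
Fitted log2 difference, ELE minus sedentary, of each gene with its standard error, in 3 choices of SIT libraries and in the separate libraries (left, right and both hemispheres). The globin genes lie between -1.41 and -1.90 in the study's SIT comparison and between -4.18 and -4.98 with all 8 SIT libraries, while in the left hippocampus they lie between -0.21 and 0.47.

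The contrast that chose the genes did not use the separate libraries, which are therefore tested, although earlier results from them were also known. In these 12 libraries 4 of the 5 genes could be tested, since Alas2 did not pass the filter on low counts. In the left hippocampus the summed globin level was 4.65 CPM ± 0.439 (SD, n = 3) in sedentary and 4.90 CPM ± 3.12 (SD, n = 3) in ELE mice. The log2 difference was 0.47 ± 0.44 for Hba-a1, -0.21 ± 0.46 for Hba-a2, -0.13 ± 0.60 for Hbb-bs and 0.13 ± 0.62 for Hbb-bt, and 0 of the 4 genes were called, beside 2.07% of all genes. The adjusted p was at least 0.960 for each (edgeR quasi-likelihood test, Benjamini-Hochberg), and exact permutation tests of the single genes gave p from 0.6 to 0.8. The left ELE mice were more variable than the left sedentary mice, with TG7.3.2 at 8.38 CPM and TG9.1.4 at 2.34 CPM.

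In the right hippocampus the sum was 8.25 CPM ± 3.21 (SD, n = 3) in sedentary and 4.27 CPM ± 0.512 (SD, n = 3) in ELE mice. The log2 difference was -1.01 ± 0.35 for Hba-a1, -0.87 ± 0.29 for Hba-a2, -1.16 ± 0.50 for Hbb-bs and -0.38 ± 0.87 for Hbb-bt. By the study's call the first 3 were lower in ELE mice, 3 of the 4 genes tested, beside 1.23% of all genes called lower. None passed after adjustment: 0 of 17570 genes did with edgeR, although 488 had an unadjusted p under 0.05, and DESeq2 gave 13 genes. Since Hba-a1 and Hba-a2 share most of their sequence, their calls are not separate observations. The call rested on single libraries: without TG9.2.3 0 of the 4 genes were called, and without TG7.3.3 or TG9.2.1 1 was called. Over all genes 164 of 18028 were lower without TG9.2.3, 216 of 18218 without TG7.3.3 and 313 of 18086 without TG9.2.1. Taken gene by gene, exact permutation tests of 3 against 3 libraries, which cannot give a p below 0.1, gave 0.2 for Hba-a1, 0.1 for Hba-a2, 0.4 for Hbb-bs, 1 for Hbb-bt and 0.1 for Alas2.

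Over both hemispheres the log2 difference between ELE and sedentary mice was -0.27 ± 0.35 for Hba-a1, -0.54 ± 0.29 for Hba-a2, -0.65 ± 0.43 for Hbb-bs and -0.14 ± 0.56 for Hbb-bt, and 0 of the 4 were called, beside 2.01% of all genes. The exact two-sided permutation test within hemispheres, on log2 of CPM plus 0.5, gave p = 0.355 for Hba-a1, 0.065 for Hba-a2, 0.2 for Hbb-bs, 0.985 for Hbb-bt and 0.37 for Alas2, none adjusted for the 5 genes, with 0.005 the smallest p it can give. For each of the 4 globin genes the fitted difference was smaller in size than in SIT, but the difference between the isolations was not tested.

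The globin level was compared between the hemispheres with exercise as a covariate. The log2 difference, left minus right, was -0.09 ± 0.35 for Hba-a1, -0.28 ± 0.28 for Hba-a2, -0.60 ± 0.43 for Hbb-bs and -0.77 ± 0.56 for Hbb-bt, with 0 of the 4 called, beside 1.17% of all genes, and exact permutation p from 0.225 to 0.72 over the 5 genes. A difference of the size fitted for the beta-globin genes cannot be told from none with these errors. Without TG7.3.2, 2 of the 4 were called, beside 218 of all 19385 genes tested. The exercise difference itself was more positive on the left than on the right by 1.47 ± 0.59 for Hba-a1, 0.66 ± 0.56 for Hba-a2, 1.03 ± 0.84 for Hbb-bs and 0.51 ± 1.15 for Hbb-bt. Only Hba-a1 met the study's call for this interaction, 1 of 4 genes beside 2.2% of all genes, and with edgeR its adjusted p was 1.0. That call was lost when any one of TG9.2.4, TG7.3.2, TG7.3.3, TG9.2.3 or TG9.2.1 was left out. Without TG9.1.4, 2 genes of the set were called, beside 519 of all 19539 genes tested.

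Most other defining red-cell genes gave little signal, so that the name red-cell signal rests mainly on the globin genes and Alas2. Of 21 defining red-cell genes found in the table, 5 had 0 counts in all 20 libraries: Epb42, a membrane skeleton protein, Rhag, an ammonium channel of the Rh complex, Gata1 and Hemgn, nuclear regulators of erythroid genes, and Cldn13. In all, 16 of the 21 stayed under 1 CPM in every library. The summed level of the list, 253 to 489 CPM over the 18 libraries without NT7.2 and 280 to 296 CPM in the NT7.2 libraries, was almost wholly Tmcc2, which averaged 358 CPM and was higher in each separate library than in any SIT library.

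Slc4a1, the anion exchanger of the red-cell membrane, had 73 counts in NT7.2.4 and 10 in NT7.2.3, and at most 22 in any other library. Car1, a carbonic anhydrase, had 23 counts in NT7.2.4, 0 in NT7.2.3 and at most 15 elsewhere. NT7.2.4, the library with the most globin, held the highest level of 5 of the 21 genes. The erythroid regulator Klf1, in contrast, had 0 counts in NT7.2.4, 20 in NT7.2.3 and up to 34 elsewhere. In SIT, 4 of the 21 genes could be tested. Of these 0 were called in the study's comparison or with all 8 libraries, where 2.11% and 5.41% of all genes were lower. In each hemisphere 0 of 5 were called, where 2.07% of all genes were called in the left and 1.23% were lower in the right.

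The other globin genes are described beside the 4 adult chains, and a difference between them was not tested. The embryonic alpha-type gene Hba-x was among the 5 of 12 with 0 counts in all libraries. Cygb, a globin of fibroblast-like cells and some neurons, averaged 55.2 CPM, Ngb, the globin of neurons, 2.46 CPM and Hbq1b 0.416 CPM. Ngb was the only one of the 4 tested that was called in SIT, at -1.02 ± 0.36, beside 2.11% of all genes called lower. It was at 5.53 and 4.02 CPM in NT6.305 and NT6.306 and at 0.806 to 3.21 CPM in the SIT ELE libraries. In the NT7.2 mice, where the adult globin genes were highest, Ngb was at 1.37 and 1.22 CPM. With all 8 SIT libraries 0 of 3 tested were called, where 5.41% of all genes were lower. In the left hippocampus 0 of 4 were called, beside 2.07% of all genes. In the right 0 of 5 were called, where 1.23% of all genes were lower.

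The remaining enzymes of heme synthesis are given next, and their difference from Alas2 was not tested. All 8 could be tested, and 0 were called in the study's SIT comparison, where their median log2 difference was -0.06 against 0.0012 for all genes. Fech, which inserts the iron, averaged 71.9 CPM, Cpox 53.8 CPM and Alas1, the housekeeping form of the first enzyme, 41.8 CPM, and Alas1 lay at 39.9 and 37.0 CPM in the NT7.2 libraries. In the left hippocampus 0 were called, in the right 1 was lower, beside 1.23% of all genes, and with all 8 SIT libraries 1 was lower, beside 5.41% of all genes. Of 16 reticulocyte genes that brain also expresses, among them Add2 and Mkrn1 at means of 344 and 197 CPM, 0 were called in the study's SIT comparison or in either hemisphere alone. With all 8 SIT libraries 1 was higher and 2 were lower, where 5.41% of all genes were lower. Over both hemispheres 1 was lower, where 2.01% of all genes were called in either direction. The list summed to 1661 and 1663 CPM in the NT7.2 libraries and 1638 to 1995 CPM in the other 18. Its single genes went both ways. Tent5c had 226 and 318 counts in NT7.2.3 and NT7.2.4 and at most 97 in the other 18. Ank1 had 2406 and 2472 counts against at most 1142, but Mkrn1 had 6710 and 7065 against up to 15303.

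Of 16 genes that handle hemoglobin, heme and iron, 15 could be tested in the study's SIT comparison, where 2.11% of all genes were lower. Ftl1, the ferritin light chain, was the only gene of the list called there, at -0.47 ± 0.15. It was at 86.4 and 70.2 CPM in NT6.305 and NT6.306 and at 47.4 to 73.0 CPM in the SIT ELE libraries, so the groups overlapped. Ftl1 reached 222 and 243 CPM in NT7.2.3 and NT7.2.4, and Fth1, the ferritin heavy chain, 2068 and 2500 CPM, against at most 565 CPM in the other SIT libraries and 498 CPM in the separate ones. With all 8 SIT libraries 4 of the 15 genes tested were lower, beside 5.41% of all genes, without the NT7.2 libraries 0 of 16 were called, and in each hemisphere 0 were called.

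Blood also carries white cells and platelets. Neutrophil markers were near 0, whereas the lymphocyte and platelet lists held sums of the order of the globin sum in the separate libraries. The summed neutrophil level was 0.130 to 0.788 CPM over the 20 libraries, with 4 of 11 genes at 0 in all of them, S100a8 at 0 in the other 18 and at 0.114 and 0.340 CPM in the NT7.2 libraries. The lymphocyte sum was 11.4 and 12.5 CPM in the NT7.2 libraries and 0.876 to 15.1 CPM in the other 18, most of it Ighm, which averaged 5.73 CPM. The B-cell receptor genes Cd79b and Cd79a were highest in NT7.2.4: Cd79b had 17 and 26 counts in NT7.2.3 and NT7.2.4 and at most 1 in the other 18 libraries, and Cd79a had 8 and 25 counts and at most 12 in the other 18. The platelet sum was 3.47 and 3.80 CPM in the NT7.2 libraries and 1.43 to 5.71 CPM in the other 18. Most of it was Itga2b and Gp1ba, which averaged 1.77 and 0.796 CPM. The platelet glycoprotein gene Gp9 had 20 and 10 counts in the NT7.2 libraries and at most 4 in the others. None of the genes of these lists that could be tested, 1, 1 and 2 in SIT, was called in the study's comparison. There 2.11% of all genes were lower.

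Part of the choroid plexus list was called lower in ELE mice in SIT and in the right hippocampus, and the summed level did not overlap between the groups in the study's SIT comparison, but did over all 8 SIT libraries and in the right hippocampus. In SIT it was lowest in NT6.303 and highest in NT7.2.4, as the globin sum was. Choroid plexus markers summed to 610 and 694 CPM in NT6.305 and NT6.306, 558 and 1107 CPM in NT7.2.3 and NT7.2.4, and 140 to 592 CPM in the SIT ELE libraries. Of these 10 genes, 5 were called lower in ELE mice in the study's SIT comparison, with a median log2 difference of -0.84, 3 were called without the NT7.2 libraries and 7 with all 8, where 2.11% of all genes were lower in the study's comparison and 5.41% with all 8. In the right hippocampus 6 of 9 were lower, beside 1.23% of all genes, with sums of 38.7 CPM in TG7.3.3, 99.7 CPM in TG9.1.1 and 1215 CPM in TG9.2.3 against 21.5 to 50.1 CPM in ELE mice. TG9.2.3 also held 8.77 CPM of globin, whereas TG7.3.3, with the most globin of the separate libraries, had few choroid plexus counts. In the left hippocampus 3 libraries exceeded 1000 CPM of choroid plexus markers, the sedentary TG7.3.4 and TG9.1.2 and the ELE TG7.3.2, with globin sums of 4.18, 4.72 and 8.38 CPM, and 0 of 10 genes were called. The part of choroid plexus tissue in the globin differences was not tested.

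Vessel markers stood out in TG7.3.3. Endothelial genes summed to 89.6 CPM in that library against 33.9 to 49.2 CPM in the other 11 separate libraries, and mural genes to 44.9 CPM against 16.6 to 27.3 CPM. In the right hippocampus 4 of 15 endothelial genes were lower in ELE mice, beside 1.23% of all genes. Without TG7.3.3, 0 of 15 were lower, beside 216 of all 18218 genes, while the choroid plexus genes went from 6 of 9 to 9 of 10. In the study's SIT comparison 0 of 11 endothelial and 0 of 6 mural genes were called, where 2.11% of all genes were lower. Endothelial sums were 34.4 and 35.6 CPM in NT6.305 and NT6.306 and 29.6 to 43.7 CPM in the SIT ELE libraries. In NT7.2.3 and NT7.2.4 endothelial genes reached 68.4 and 73.2 CPM. With all 8 SIT libraries 6 of 12 were lower, beside 5.41% of all genes. Of the meningeal fibroblast genes, 2 of 8 were lower in the study's SIT comparison, the collagen gene Col3a1 and the growth factor gene Igf2, and 3 of 8 in the right hippocampus, beside the same shares of all genes as for choroid plexus. With all 8 SIT libraries 4 of 8 were lower, beside 5.41% of all genes. The meningeal sum, like the globin sum, did not overlap between the SIT groups: it was 52.9 and 52.5 CPM in NT6.305 and NT6.306 and 119 and 123 CPM in the NT7.2 libraries, against 25.4 to 51.1 CPM in the SIT ELE libraries. In the right hippocampus it overlapped, at 40.6 to 53.6 CPM in sedentary and 16.9 to 56.7 CPM in ELE mice. The part of vessels and meninges in the globin differences was not tested.

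**Figure D4:**
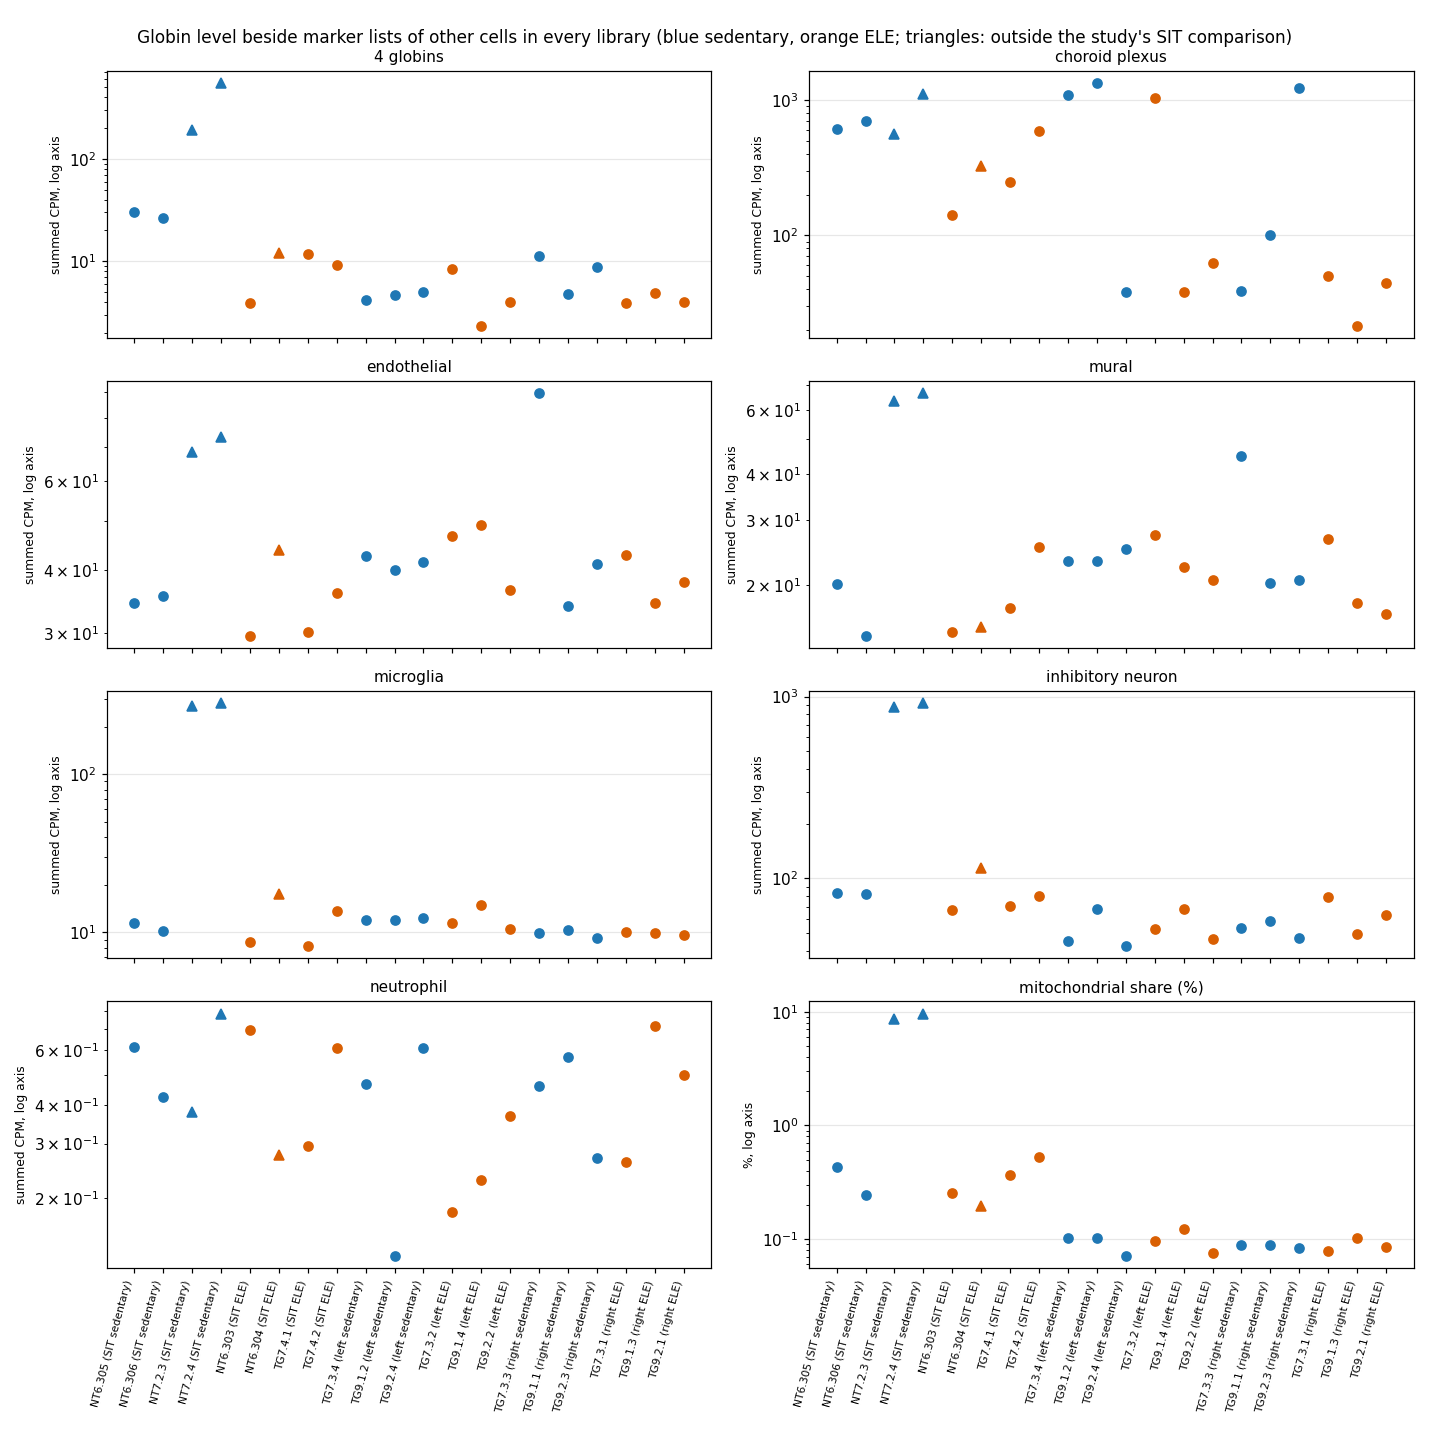
Summed CPM of the 4 globin genes and of 6 marker lists, and the mitochondrial share of counts in %, in every library on log axes; blue is sedentary, orange is ELE, and triangles are SIT libraries outside the study's comparison. The NT7.2 libraries are highest for globin (192.4 and 553.4 CPM), microglia, inhibitory neurons and mitochondrial share, and TG7.3.3 is highest for endothelial genes (89.6 CPM).

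The genes whose levels followed the globin sum most closely depended on the libraries and on the measure. Among the 14220 genes that averaged 1 CPM or more, and over all 20 libraries, the highest Spearman correlations with the summed globin level were those of Gm3558 (0.818), Elmo1 (0.803), B630019K06Rik (0.794), Kantr (0.773) and Cdkn1c (0.765), and Alas2 had 0.667 (0.904 by Pearson correlation of log2 CPM). By Pearson correlation of log2 CPM the leading genes were Dlx2 (0.939), Pvalb, Bc1, Zfp385a and Gm28438, 0 of them shared with the first 5, and each of these was highest in NT7.2.4. Over the 12 separate libraries the first 5 by Spearman were Myl6b (0.930), Snhg18 (0.923), Cyp2s1 (0.895), Ilkap (0.888) and Axin2 (0.881), of which only Axin2 was among the first 5 by Pearson, and Alas2 had 0.518. These are correlations over libraries that share groups, mice of one number and isolation, and are descriptions only.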

How the data were processed

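TRAP RNA from 20 Emx1-NuTRAP hippocampal libraries was counted per gene. The deposited values are raw read counts per gene: the authors made poly(A)-selected directional libraries, aligned them with STAR 2.7.3a, removed duplicates with Picard 1.87 and counted read pairs strand-aware with summarizeOverlaps. The reference assembly of the study's sequencing analyses was GRCm38.p6; 54587 of 55335 gene identifiers matched GENCODE GRCm38 with their version. Columns carry mouse numbers and were placed in groups through the study's list of mice; 24 columns of a second table could not be placed and were not used.

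Counts were scaled by TMM, filtered by filterByExpr and fitted with the quasi-likelihood test of edgeR 4.0.16 (R 4.3.3), over all genes of the groups compared. Calls follow the study's methods (p under 0.05 without adjustment, and a log2 difference past the study's threshold in either direction); p-values were also adjusted over all genes (Benjamini-Hochberg). Over both hemispheres hemisphere was a covariate. Standard errors are the absolute log2 difference divided by the square root of F. Single genes were tested by exact permutation on log2 of CPM plus 0.5 (scipy 1.17.1). Alternatives were DESeq2 1.42.0, median-of-ratios size factors, no filter, a block by the first part of the mouse number, other libraries or covariates, and each library left out. The SIT fit without both NT7.2 libraries and the marker counts without them or without TG7.3.3 were added after the data were seen. Simulated counts had 200 genes doubled and were drawn with less spread than real mice may have. Of the doubled genes, 94.5% had an adjusted p under 0.05 (edgeR) in the SIT design (17665 genes). The share was 99% in the left (17490), 97.5% in the right (17295) and 100% over both hemispheres (18135). Only genes above a count cutoff were doubled, and every gene had the same spread. These shares therefore do not speak to genes with few counts, such as Hbb-bt and Alas2 in the separate libraries.

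The genes, marker lists and tests were chosen with earlier results of these data known. By rule the named genes are the 5 members, the 3 most abundant genes of a list and those called in SIT or in 2 or more separate comparisons. The rule also names the 5 genes with the highest Spearman correlation to the globin sum. Further genes in the text (Slc4a1, Car1, Klf1, S100a8, Gp9, Tent5c, Ank1, the genes at 0) were named after their values were seen. Ahsp was not matched, and some genes that this rule names are not reported here. Of 24 pairs of libraries of one group, all differed by more than sampling noise. Each library is 1 mouse, so p-values measure the spread between mice. Intervals and floors cover counting error only, at 45895097 to 65767802 counts per library.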

Additional observations from a re-analysis of the deposited data

Results flagged for a closer look

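For Hba-a1 the exercise difference met the unadjusted call for a difference between the hemispheres: the left minus right difference of the log2 exercise effects was 1.47 ± 0.59 (SE) in the edgeR fit of 12 libraries, with an adjusted p of 1.0. Without 1 library at a time it ranged from 0.95 to 1.83, and the call was lost without TG9.2.4, TG7.3.2, TG7.3.3, TG9.2.3 or TG9.2.1.

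The SIT sedentary libraries NT7.2.3 and NT7.2.4, outside the study's comparison, held summed globin levels of 192.4 and 553.4 CPM, above each of the 18 other libraries, of which the highest was at 30.6 CPM. The test for a single library far from its group, run on 20 gaps in the SIT groups of 4, picked out 0 libraries, but with both NT7.2 libraries high in a group of 4 it cannot speak to either of them.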

How the results depend on the processing

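DESeq2 and median-of-ratios size factors gave the same number of globin genes called as edgeR in each comparison. Over the other settings, 111 of 120 single-gene differences kept their direction and side of the call, and 176 of 217 did with 1 library left out; 60 of 60 group mean levels moved by less than 1 SD without TMM or without mitochondrial genes. The SIT count of genes called was 665 with the study's libraries, 1350 with all 8 and 540 with the globin covariate, which separates the groups and takes up the contrast by construction. Within each hemisphere, deviations of ELE and sedentary mice of the same first number had correlations from -0.0305 to 0.138. For mice of different numbers they ran from -0.132 to 0.156, so the numbers were not treated as pairs. Mice of one number in different hemispheres were not compared in this way. With the replicate block, 1 globin gene was called over both hemispheres, 3 in SIT (where the block compares only NT6 mice), 0 in the left and 2 in the right hippocampus, 0 between the hemispheres and 1 for the interaction; with sign changes within the block the exact permutation p was 0.4375 for Hba-a1 and 0.125 for Hba-a2. Signs turned for Alas2 in SIT (-6.16 with the block, -2.98 with all 8, -0.28 within NT6) and for Hbb-bt with the block (0.39 in the right hippocampus, 0.018 over both, -0.073 for the interaction). Their cause was not tested. Over all genes the block called 446 of 18810 over both hemispheres, against 378 without it. It called 314 of 17750 against 367 in the left hippocampus and 301 of 17570 against 347 in the right.

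With each library left out in turn, the number of globin genes called stayed at 4 in SIT without any one of the ELE libraries. Without either sedentary library only 1 is left in that group, and no count is given. The number ranged from 0 to 2 in the left hippocampus (2 lower without TG7.3.2, 1 higher without TG9.1.4) and 0 to 3 in the right. It ranged from 0 to 2 over both (2 without TG7.3.2), between hemispheres (2 without TG7.3.2) and for the interaction. The number over all genes moved as well. Without TG7.3.2 it was 945 of 18243 in the left hippocampus, against 367 of 17750 with every library. It was 537 of 18319 there without TG9.1.4. Over both it was 635 of 19385 without TG7.3.2, against 378 of 18810. The log2 differences that turned sign ranged, in the left hippocampus, from -0.064 to 0.82 for Hba-a1, -0.93 to 0.13 for Hba-a2, -1.12 to 0.19 for Hbb-bs and -0.26 to 0.43 for Hbb-bt; in the right from -0.85 to 1.43 for Hbb-bt; over both from -0.33 to 0.67 for Hbb-bt; between hemispheres from -0.40 to 0.047 for Hba-a1 and -0.97 to 0.027 for Hbb-bt; and for the interaction from -0.056 to 0.99 for Hba-a2 and -1.31 to 0.97 for Hbb-bt.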
